A study of Homo sapiens with 3 samples.

Results

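The 36 lysosome and autophagy genes described here were chosen by name, with earlier results of these data known. They cover membrane proteins of the lysosome, its proteases, glycosidases and lipid-handling proteins and subunits of its proton pump. The transcription factor TFEB and components of autophagosomes are included. A gene could be read where the array carried a probe set annotated to that gene alone, and its brightest probe set over the 3 arrays stood for it. By that rule 35 of the 36 had a probe set, out of 19775 genes in all, and 34 passed a filter on dim signals that 11783 genes passed. Genes past the filter are called measured below. The member with none of its own was GLB1, and the member below the filter was CTSS.

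The samples were U2OS cells, a human osteosarcoma line, each carrying 1 of 3 retroviral constructs. The first encoded stable Set8b (labelled Set8_deltaPIP2), which escapes destruction by the CRL4-Cdt2 ubiquitin ligase. The second encoded wild-type Set8b (labelled Wt-Set8b), and the third was the pMSCV vector with no insert (labelled pMSCV-vector). All cells were harvested 5 days after transduction. Set8b is an isoform of the enzyme that adds a single methyl group to lysine 20 of histone H4. There was 1 array for each construct, so the differences cannot be set against a spread between cultures, none comes with a p-value, and precision is limited by how few arrays there are.

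Lysosomes are acidic organelles that break down proteins, sugars, lipids and nucleic acids. A proton pump, the v-ATPase, keeps them acidic, and autophagosomes deliver cytoplasmic material to them. TFEB and its relatives TFE3, MITF and TFEC bind short E-box sequences near the start sites of many lysosomal genes. Cells that have left the cell cycle for good, as in senescence, often hold more lysosomes, and the senescence-associated beta-galactosidase stain reads the enzyme encoded by GLB1. The comparisons ask whether lysosomal transcripts differed where those of the cell cycle were lower.

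The arrays had median intensities of 41.7 with stable Set8b, 42.8 with wild-type Set8b and 38.6 with vector before normalization. For stable Set8b over vector the ratio had a median of 0.796 over hybridisation spike-ins and 0.467 over poly-A spike-ins, against 1.01 and 0.441 for wild-type Set8b over vector. The ratio of 3' to 5' signal, which rises as RNA degrades, lay between 1.02 and 1.12 for GAPDH. For ACTB it was 7.33 with stable Set8b, 7.56 with wild-type Set8b and 7.995 with vector, far above that of GAPDH on all 3 arrays. Of 8 mesenchymal and bone markers 7 passed the filter, all but COL1A2. Their log2 differences for stable Set8b over vector ranged from -0.62 (RUNX2) to 1.29 (CDH11), with ALPL at 1.28 and VIM at 0.02. RUNX2 was named as the end of the range, and its 3 probe sets lay between -0.62 and 0.70, so its direction was not settled. ALPL was dim, at 91.8 with stable Set8b, 46.1 with wild-type Set8b and 37.7 with vector. The last 2 values are below the filter level of 51.4, so ALPL passed only through its stable Set8b signal. With dim sides set to a signal of 50 its difference was at least 0.88, a bound that does not cover noise. Of 5 epithelial markers 4 passed, with EPCAM at -1.35 (169 with stable Set8b, 425 with wild-type Set8b and 431 with vector) and CLDN4 at 0.75. Of 9 markers of macrophages and other leukocytes, cells rich in lysosomes, 8 had a probe set and 1 passed, CSF1R, and the summed signal of the 8 was 190.0 with stable Set8b, 222 with wild-type Set8b and 154.2 with vector. The part of the spike-in, 3' to 5' and marker differences in the results was not tested. A signal is relative to the other RNA of its culture, so a change in the share of cells that express a gene and a change in RNA per cell cannot be told apart.

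Most lysosome and autophagy genes were higher with stable Set8b than with vector. Of 34 measured members 31 lay above 0 on the log2 scale and 17 were at least 1.5-fold higher, among them the glycosidase genes FUCA1 and NEU1 and the autophagosome gene GABARAPL1. No member was 1.5-fold lower. Over all genes past the filter 49.3% lay above 0, 13.6% were higher by 1.5-fold or more and 14.0% were lower by as much. The members' median log2 difference was 0.59 (quartiles 0.41 and 0.86), and that of all genes was -0.01. The members were chosen with earlier results of these data known, so the contrast with all genes describes them and is no independent evidence. At a 2-fold difference the members held 4 higher and 0 lower genes, against 5.23% and 4.81% of all genes, so the members' shift was broad and mostly under 2-fold.

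**Figure D1:**
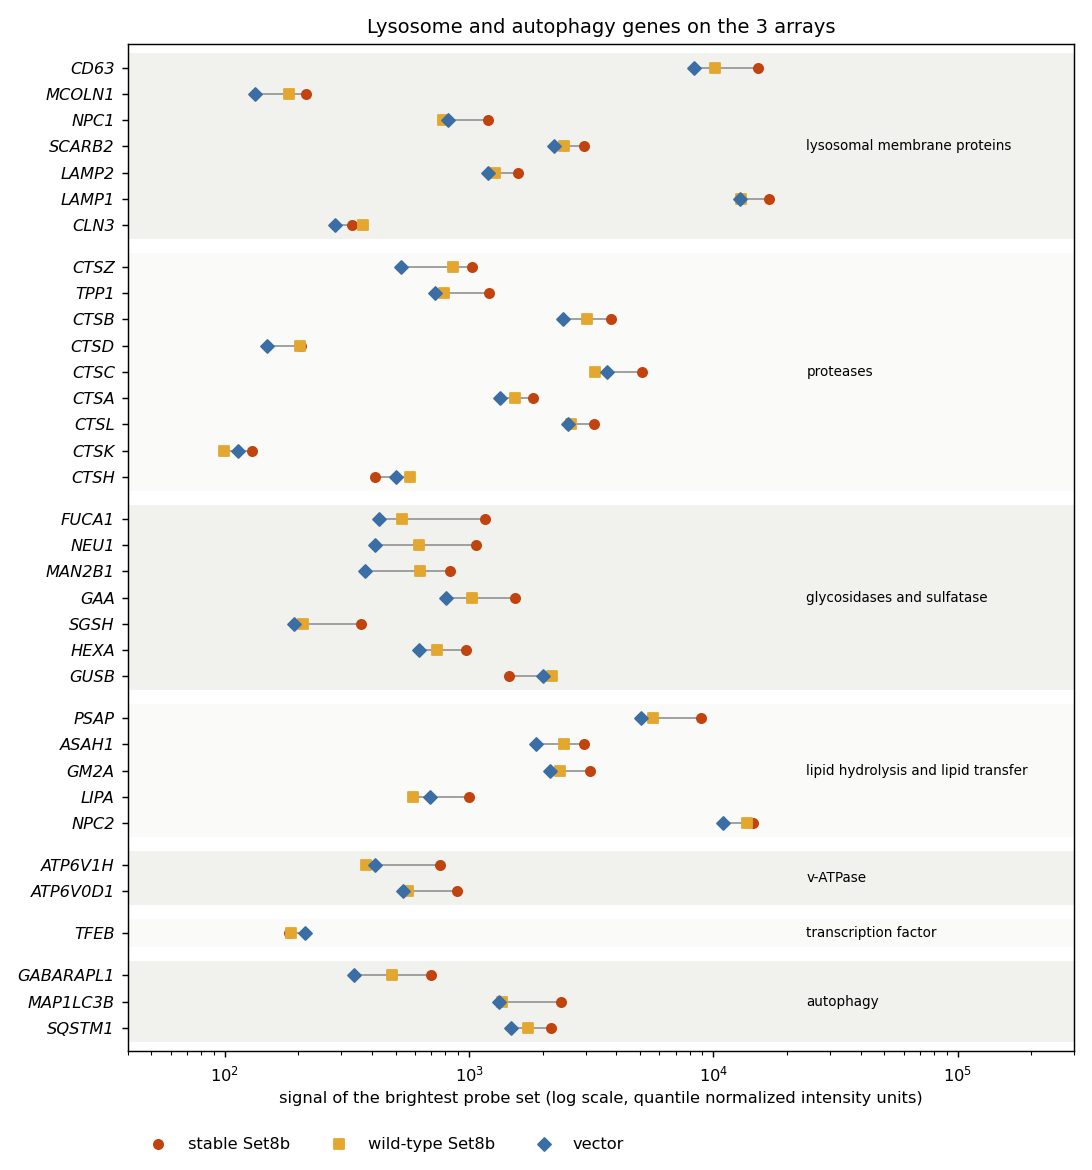
Signal of the brightest probe set of each of the 34 measured members (log axis, quantile normalized intensity units) with stable Set8b (circles), wild-type Set8b (squares) and vector (diamonds), 1 array each, grouped by role. The stable Set8b point is the rightmost for 30 members, and the vector point is the leftmost for 26.

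On the array level, 30 of the 34 members had their highest signal with stable Set8b, 3 with wild-type Set8b (CLN3, CTSH and GUSB) and 1 with vector (TFEB). Among all genes past the filter, 39.3% were highest with stable Set8b. The members are bright: with genes split by signal into 4 equal bins, 15 members lay in the brightest bin and 13 in the next. In the brightest bin 5 of the 15 members were at least 1.5-fold higher with stable Set8b than with vector, against 8.3% of the genes there. In the next bin it was 10 of 13 members, against 11.1% of genes. The excess was thus seen at both signal levels.

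The 20 proliferation genes used for comparison, of the MCM helicase, replication and mitosis, all lay below 0 on the same arrays, with a median of -1.16. At least 2-fold lower with stable Set8b than with vector were 11 of them, or 55%, against 4.81% of all genes. CDKN1A, which encodes the cell cycle inhibitor p21, read 6590 with stable Set8b, 1891 with wild-type Set8b and 1052 with vector. With wild-type Set8b over vector the proliferation genes had a median of -0.18 and 0 of 20 were 2-fold lower, against 0.653% of all genes. The medians of the lysosomal and the proliferation genes thus lay on opposite sides of 0 for stable Set8b over vector, although 3 of the 34 members lay below 0. The lysosomal median was the smaller in size.

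**Figure D2:**
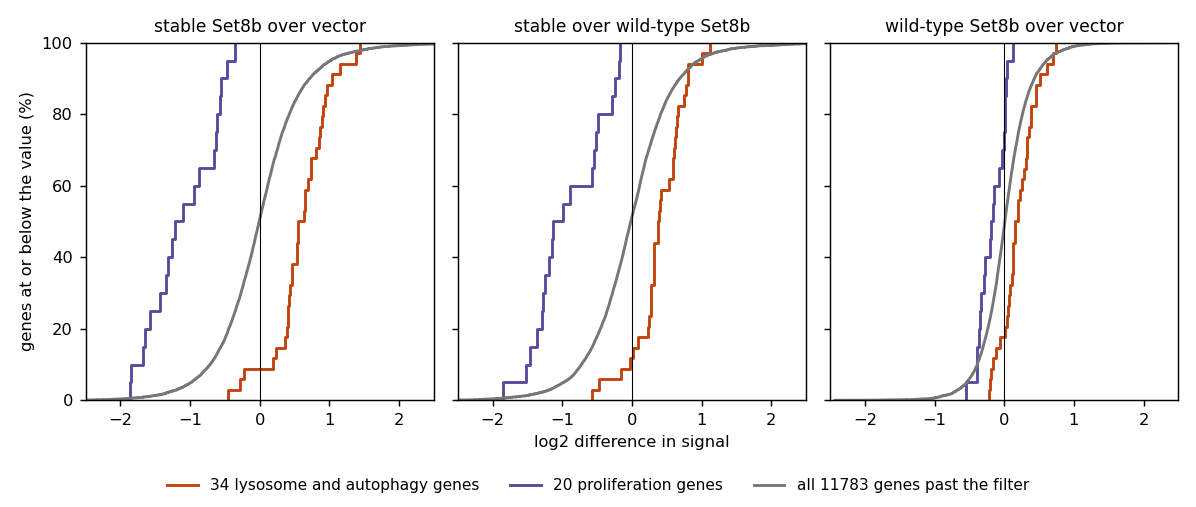
Cumulative share of genes (percent) against the log2 difference in signal for the 3 comparisons, with the 34 members, the 20 proliferation genes and all 11783 genes past the filter as separate lines. At the median the members' line lies to the right of that for all genes, at 0.59, 0.38 and 0.18. The proliferation line lies to the left there, at -1.16, -1.06 and -0.18. The line for all genes reaches further out at both ends.

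Promoter sequence was looked at because most members were higher with stable Set8b and many are described targets of TFEB. RefSeq start-site windows (250 bases before to 50 after, GRCh38.p14) were found for 27 of the 36 members. The E-box CACGTG, which reads the same on both strands, stood in at least 1 window of 9 of these 27, or 33.3%, against 8.77% of all 27305 genes with a window. The longer TCACGTGA, which contains it, stood in 6 of 27, or 22.2%, against 1.18%, and the same letters with a G before and a C after them, the longest form searched, in 2 of 27 against 0.421%. Those backgrounds include genes that were not measured. Of the 9628 measured genes with a window, 1236 held CACGTG, 222 TCACGTGA and 86 the longest form, which are larger shares. Stretches upstream of the start site follow for the 2 members with the longest form, for 3 with TCACGTGA, and for NEU1 and FUCA1, the members with the largest difference, of which FUCA1 has no match in its window. Capitals mark the E-box with its matching flanks, and each stretch ends at the base before the start site.
GAA (chr17:80101451-80101580, plus strand): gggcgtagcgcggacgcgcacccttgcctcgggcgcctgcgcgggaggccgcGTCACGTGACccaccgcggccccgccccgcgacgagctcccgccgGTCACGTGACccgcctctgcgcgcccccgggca
MCOLN1 (chr19:7522494-7522623, plus strand): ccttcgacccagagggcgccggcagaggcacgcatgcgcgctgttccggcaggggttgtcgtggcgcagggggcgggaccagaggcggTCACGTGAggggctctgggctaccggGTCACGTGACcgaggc
LAMP1 (chr13:113297039-113297238, plus strand): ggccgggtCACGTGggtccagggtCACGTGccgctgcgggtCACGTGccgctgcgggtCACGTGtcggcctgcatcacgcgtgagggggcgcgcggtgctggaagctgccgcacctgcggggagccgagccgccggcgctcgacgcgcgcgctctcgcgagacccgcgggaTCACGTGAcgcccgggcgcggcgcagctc
CTSA (chr20:45891205-45891334, plus strand): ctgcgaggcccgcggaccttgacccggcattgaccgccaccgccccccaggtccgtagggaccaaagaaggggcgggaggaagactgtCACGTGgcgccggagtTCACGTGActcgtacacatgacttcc
ATP6V0D1 (chr16:67481158-67481287, minus strand): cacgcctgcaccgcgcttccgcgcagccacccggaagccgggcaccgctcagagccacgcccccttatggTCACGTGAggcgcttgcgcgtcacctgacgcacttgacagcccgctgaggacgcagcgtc
NEU1 (chr6:31862822-31862951, minus strand): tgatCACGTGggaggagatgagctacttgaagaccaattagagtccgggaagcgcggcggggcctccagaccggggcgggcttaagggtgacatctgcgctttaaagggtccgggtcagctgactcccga
FUCA1 (chr1:23868291-23868420, minus strand): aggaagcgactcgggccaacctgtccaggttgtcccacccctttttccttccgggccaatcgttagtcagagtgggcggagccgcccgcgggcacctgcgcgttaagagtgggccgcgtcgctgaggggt

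GAA holds the longest form at 2 places and MCOLN1 at 1, beside a TCACGTGA. LAMP1 has CACGTG at 5 places in the 200 bases shown. The members that hold a CACGTG were LAMP1, CD63, MCOLN1, CLN3, CTSA, CTSD, GAA, NEU1 and ATP6V0D1. With stable Set8b over vector their log2 differences ranged from 0.23 to 1.38 with a median of 0.69, and the 17 measured members with a window but no match ranged from -0.45 to 1.43 with a median of 0.54. For TCACGTGA the medians were 0.57 over 6 members with it and 0.54 over 20 without it. Of all measured genes, 222 had TCACGTGA in a window, and their median was 0.01 with 112 above 0, like the -0.01 over the 9628 measured genes with a window. For the longest form the median was 0.82 over 2 members and 0.54 over 24 without it. With wild-type Set8b over vector, members with CACGTG had a median of 0.35 and those without it 0.13. With stable over wild-type Set8b the order turned, at 0.37 with CACGTG and 0.41 without it. For TCACGTGA it was 0.31 against 0.41 there, and for the longest form 0.41 against 0.39. The letters were more common among the members than among all genes. That share comes from sequence alone and uses no array value. The genes were chosen by name, with earlier results of these data known, and many are described TFEB targets. The members' own medians differed in size and order by motif and comparison. A match is not a binding site, and the windows cover only the bases around the annotated starts.

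**Figure D3:**
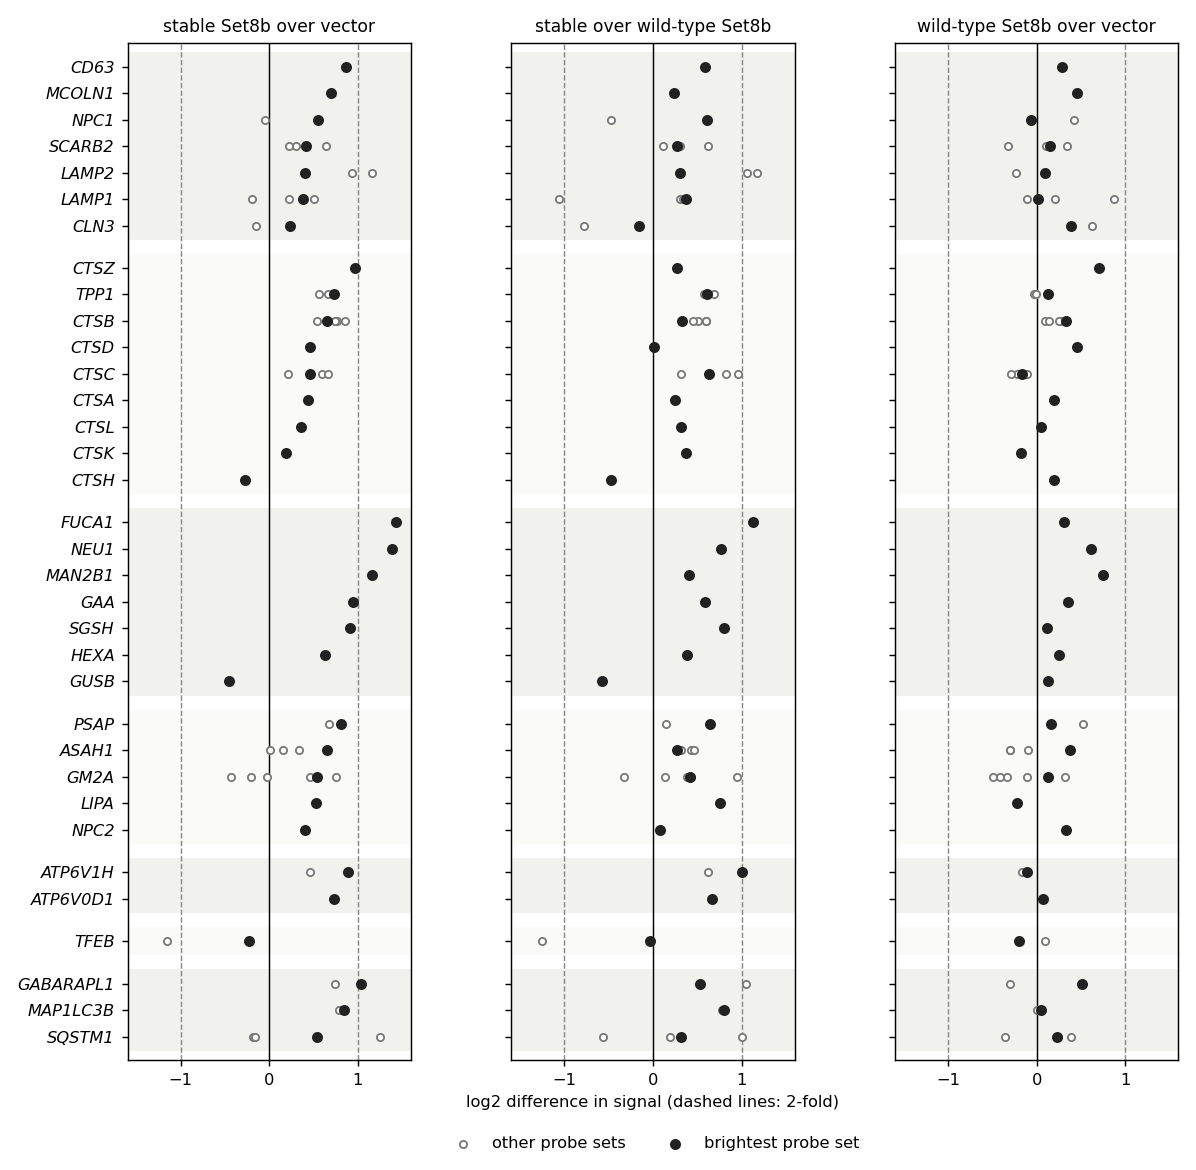
Log2 difference in signal of the 34 members by the brightest probe set (filled points) and by their other probe sets past the filter (open points) for the 3 comparisons, 1 array a group. Dashed lines mark 2-fold. With stable Set8b over vector, filled points pass the right dashed line for FUCA1, NEU1, MAN2B1 and GABARAPL1.

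The glycosidases and the sulfatase SGSH, which strip sugars and sulfates from glycoproteins, glycolipids and glycosaminoglycans, had the highest median of the roles with more than 3 members, 0.94 over 7 genes, and 6 of the 7 were at least 1.5-fold higher with stable Set8b than with vector. FUCA1, the alpha-L-fucosidase, read 1156 with stable Set8b, 530.1 with wild-type Set8b and 428 with vector, 2.70-fold higher with stable Set8b than with vector. NEU1, the sialidase that removes terminal sialic acid, read 1069, 626 and 410.5 in the same order, 2.60-fold higher. MAN2B1, the acid alpha-mannosidase, read 837, 630.4 and 375, 2.23-fold higher. For all 3 the stable Set8b array was highest and the vector array lowest, and wild-type Set8b lay between them.

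GAA, the acid alpha-glucosidase that degrades glycogen, read 1543 with stable Set8b, 1024.5 with wild-type Set8b and 804 with vector, which puts stable Set8b over vector at 0.94 on the log2 scale. SGSH, which acts on heparan sulfate, read 362, 208 and 192 in that order, a difference of 0.91. HEXA, the alpha subunit of beta-hexosaminidase, read 968, 740.2 and 623, a difference of 0.64. These too were highest with stable Set8b. The exception in this role was GUSB, the beta-glucuronidase, picked out after its value was seen, which read 1462 with stable Set8b, 2185.5 with wild-type Set8b and 1997 with vector, a difference of -0.45. GLB1, the beta-galactosidase gene behind the senescence stain, shares its probe set with TMPPE. That probe set read 869.7 with stable Set8b, 1012 with wild-type Set8b and 958 with vector, a difference of -0.14, and cannot be assigned to either gene.

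Among the proteases, 8 of the 9 measured lay above 0 with stable Set8b over vector, with a median of 0.46. CTSZ, a carboxypeptidase of the cathepsin family, read 1031 with stable Set8b, 857 with wild-type Set8b and 527.5 with vector, 1.95-fold higher with stable Set8b than with vector. TPP1, the tripeptidyl peptidase lost in a childhood neuronal ceroid lipofuscinosis, read 1205, 792 and 724 in that order, 1.66-fold higher. CTSB, cathepsin B, read 3791.5, 3031 and 2415, and its 5 probe sets gave log2 differences between 0.55 and 0.85. TPP1 and CTSB were higher by every probe set past the filter, and for CTSZ 1 probe set passed.

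CTSC, cathepsin C, which activates serine proteases, read 5077 with stable Set8b, 3282 with wild-type Set8b and 3681 with vector, which puts stable Set8b over vector at 0.46 on the log2 scale, and its 4 probe sets lay between 0.21 and 0.67. CTSA (0.44), CTSD (0.46), CTSL (0.36) and CTSK (0.19) lay above 0 by less than 1.5-fold. CTSH, a cathepsin with aminopeptidase activity, was at -0.28, picked out after its value was seen. CTSS, a cathepsin best known from antigen-presenting cells, had signals of 29.5 with stable Set8b, 31.8 with wild-type Set8b and 28.6 with vector by its brightest probe set, below the filter level of 51.4. The protease genes were thus higher as a group by small differences, with CTSH on the other side.

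All 7 lysosomal membrane proteins lay above 0 with stable Set8b over vector, with a median of 0.41. CD63, a tetraspanin of late endosomes and lysosomes, read 15151 with stable Set8b, 10116 with wild-type Set8b and 8308 with vector, 1.82-fold higher with stable Set8b than with vector. MCOLN1, the calcium-conducting channel TRPML1, read 215, 183 and 133 in that order, 1.61-fold higher. NPC1, which exports cholesterol from the lysosome, read 1192, 780.3 and 816, 1.46-fold higher, while its dim second probe set (50.1, 69.5 and 52) gave -0.05. Each of the 3 was highest with stable Set8b by its brightest probe set.

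LAMP1, among the most abundant glycoproteins of the lysosomal membrane, read 16799 with stable Set8b, 13006 with wild-type Set8b and 12857 with vector, which puts stable Set8b over vector at 0.39 on the log2 scale. Its 4 probe sets ranged from -0.19 to 0.51, and the one below 0 was dim (136, 284 and 155.6). With arrays centred on their medians in place of quantile normalization LAMP1 was at 0.08, and CD63 at 0.57. The differences of these bright members were smaller there, in part with a shift of all genes, whose median was -0.12 against -0.01. LAMP2, a LAMP1 relative needed for autophagosome clearance, was at 0.40 by the brightest of its probe sets, while the other 2 past the filter gave 1.16 and 0.94. SCARB2, the receptor that carries glucocerebrosidase to the lysosome, was at 0.41, and its 4 probe sets lay between 0.22 and 0.64. CLN3, the Batten disease gene, was at 0.23 by one probe set and -0.15 by the other, so its direction was not settled. The size of the LAMP1 and LAMP2 differences depended on the probe set, with LAMP2 above 0 by all 3.

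The 5 genes that handle lipids all lay above 0 with stable Set8b over vector, with a median of 0.54. PSAP, the precursor of the saposins that lift sphingolipids to their hydrolases, read 8855 with stable Set8b, 5658 with wild-type Set8b and 5067 with vector, 1.75-fold higher with stable Set8b than with vector. ASAH1, the acid ceramidase, read 2947, 2440.3 and 1877 in that order, 1.57-fold higher, with its 4 probe sets past the filter between 0.01 and 0.65 on the log2 scale. LIPA, the acid lipase of cholesteryl esters and triglycerides, read 995, 591 and 689, a log2 difference of 0.53. NPC2, the soluble partner of NPC1, was at 0.41, and GM2A, the activator of GM2 ganglioside breakdown, was at 0.54 with its 6 probe sets past the filter between -0.43 and 0.75. Among probe sets past the filter, those below 0 were 3 of GM2A with signals under 200.

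Both v-ATPase subunits were higher with stable Set8b. ATP6V1H, a regulatory subunit of the cytosolic domain, read 762 with stable Set8b, 379 with wild-type Set8b and 410.4 with vector, which puts stable Set8b over vector at 0.89 on the log2 scale. ATP6V0D1, which joins the membrane domain to the rest of the pump, read 888, 561 and 535 in that order, a difference of 0.73. The wild-type Set8b and vector arrays lay close to each other for both, at log2 differences of -0.11 and 0.07.

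The 3 autophagy genes were higher by their brightest probe sets. MAP1LC3B, whose product LC3B is attached to the autophagosome membrane, read 2383 with stable Set8b, 1367 with wild-type Set8b and 1324 with vector, 1.80-fold higher with stable Set8b than with vector, and its second probe set gave 0.79 on the log2 scale against 0.85 by the first. GABARAPL1, of the same protein family, read 696 with stable Set8b, 484 with wild-type Set8b and 339 with vector, 2.06-fold higher than with vector, and its second probe set gave 0.75. SQSTM1, which encodes the cargo receptor p62, read 2165, 1739.5 and 1488 in that order, a difference of 0.54. Its 4 probe sets past the filter gave 0.54, 1.25, -0.18 and -0.16, so SQSTM1 depended on the probe set, and it was at -0.18 where probe sets ending in _x_at or _s_at were left out. MAP1LC3B and GABARAPL1 were each above 0 by both of their probe sets, though these end in _s_at and can read related transcripts.

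TFEB, the transcription factor of lysosomal genes, was not higher. Its brightest probe set read 182.5 with stable Set8b, 186 with wild-type Set8b and 214 with vector, which puts stable Set8b over vector at -0.23 on the log2 scale. Its second probe set read 34.6, 82.4 and 77.3 in that order, a difference of -1.16. TFEB is known to be controlled largely by its entry into the nucleus, which an array does not measure.

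Over all members, 69 probe sets passed the filter and 57 of them lay above 0 with stable Set8b over vector, with a median of 0.54. Of 16 members with several probe sets, 10 were above 0 by all of them, 1 (TFEB) below by all, and 5 were mixed (LAMP1, NPC1, CLN3, GM2A and SQSTM1). Between probe sets of one gene the SD of the log2 difference was 0.39 over 5357 genes, so differences of single members near the median are of the size of the probe-set noise.

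Stable over wild-type Set8b asks what the degradation-resistant form adds to the degradable one, and it uses the same stable Set8b array. Of the 34 members 30 lay above 0, with a median of 0.38 against -0.02 over all genes, where 48.6% lay above 0. At least 1.5-fold higher were 12 members, against 12.9% of all genes, and 0 were 1.5-fold lower, against 14.4%. At 2-fold there were 2 members higher, FUCA1 at 1.12 and ATP6V1H at 1.01, against 4.45% of genes, and 0 lower, against 4.80%. Next came MAP1LC3B at 0.80, SGSH at 0.80, NEU1 at 0.77 and LIPA at 0.75. The 4 members below 0 were GUSB at -0.58, CTSH at -0.47, CLN3 at -0.16 and TFEB at -0.03. With values as deposited NPC2 too was below 0, at -0.20 against 0.08 after quantile normalization, which left 29 of 34 above 0 with a median of 0.34. LAMP1, at 0.37, was at 0.07 with values as deposited and at -0.01 with the mean over its probe sets, and SQSTM1, at 0.32, was at -0.57 without probe sets ending in _x_at or _s_at.

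With wild-type Set8b over vector the differences were smaller. Of the 34 members 28 lay above 0, with a median of 0.18 against 0.01 over all genes, where 51.2% lay above 0. With arrays centred on their medians in place of quantile normalization, 19 of 34 lay above 0 with a median of 0.03, while the median of all genes was -0.13 and 33.1% of them lay above 0. At least 1.5-fold higher were 3 members, MAN2B1 at 0.75, CTSZ at 0.70 and NEU1 at 0.61, against 5.57% of all genes, and 0 were 1.5-fold lower, against 4.11%. At 2-fold there were 0 members higher and 0 lower, against 1.02% and 0.653% of all genes. A direction for the members with wild-type Set8b thus depended on the scaling, although their median lay above that of all genes under both.

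Single members differed in how their 2 differences compared. NEU1 was at 0.61 for wild-type Set8b over vector and at 0.77 for stable over wild-type Set8b. MAN2B1 was at 0.75 for wild-type Set8b over vector and at 0.41 for stable over wild-type Set8b, and CTSZ at 0.70 and 0.27. ATP6V1H was at -0.11 and 1.01, LIPA at -0.22 and 0.75, MAP1LC3B at 0.05 and 0.80, and SGSH at 0.11 and 0.80. CTSD, at 0.46 and 0.01, and NPC2, at 0.33 and 0.08, differed little between both forms of Set8b. These pairs of differences share the wild-type Set8b array, so an error on that array moves both in opposite directions, and no relation between them is given.

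Other genes of the lysosome and of autophagy that are not members were read in 8 lists. Of 173 listed genes 150 passed the filter, and with stable Set8b over vector 110 lay above 0, with a median of 0.20, 14 at least 2-fold higher (9.33%, against 5.23% of all genes) and 1 lower (0.667%, against 4.81%). At least 1.5-fold higher were 35 of them, or 23.3%, against 13.6% of all genes, and 11 were 1.5-fold lower, or 7.33%, against 14.0%. The shift was thus smaller than that of the members, and members and lists alike were chosen with earlier results of these data known. It differed by list: the other v-ATPase subunits had a median of 0.45 with 13 of 15 above 0, the other hydrolases 0.36 with 19 of 24, and autophagy receptors and ATG8 proteins 0.34 with 10 of 11. Genes for sorting to the lysosome had 0.08 with 13 of 17 above 0, the autophagy core 0.15 with 18 of 28, lysosome fusion 0.16 with 12 of 16, and the MiT/TFE factors with mTORC1 components 0.13 with 11 of 19. Over all genes past the filter 49.3% lay above 0.

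**Figure D4:**
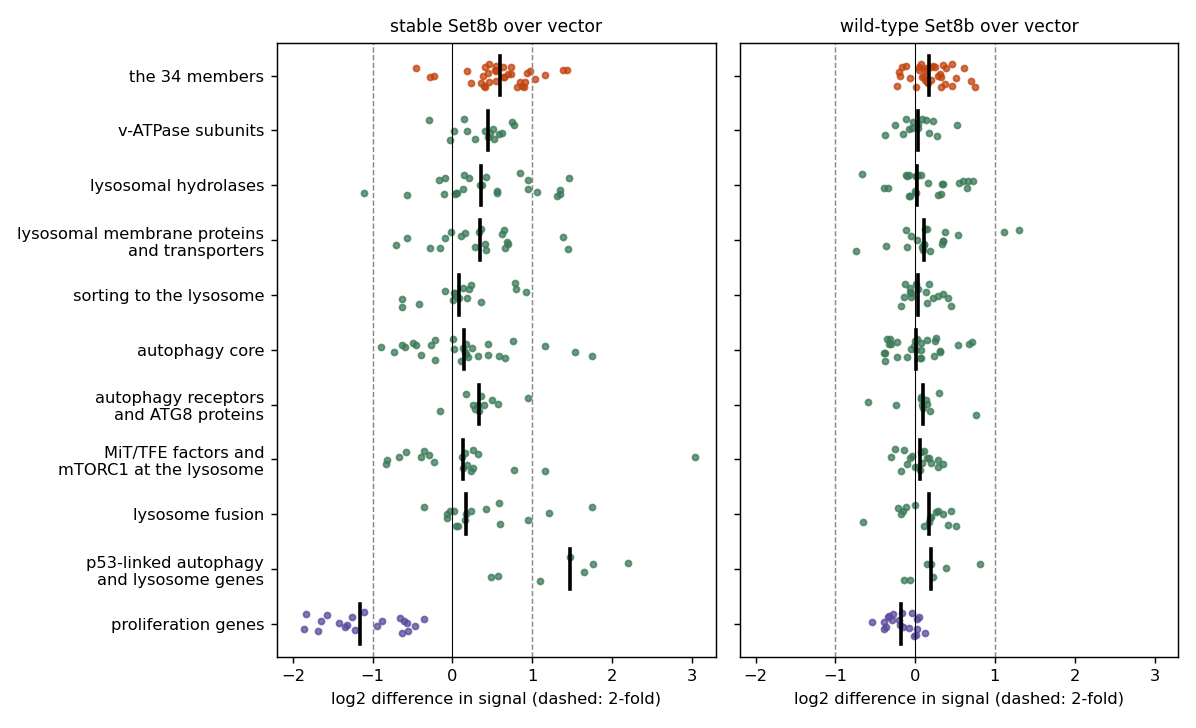
Log2 difference in signal of single genes (points) and list medians (black bars) for the 34 members, 9 lists of related genes and the 20 proliferation genes, for stable Set8b over vector (left) and wild-type Set8b over vector (right), 1 array a group. The p53-linked list has the highest median on the left, 1.47, and the proliferation list the lowest, -1.16, and dashed lines mark 2-fold.

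Of the other v-ATPase subunits 0 of 15 were 2-fold higher, against 5.23% of all genes. The largest differences were those of ATP6V1D at 0.77, the accessory subunit ATP6AP2 at 0.75, ATP6V0A1 at 0.62 and ATP6V1A at 0.58. Of the hydrolase list, which also holds the acetyltransferase gene HGSNAT, 5 of 24 genes were 2-fold higher, or 20.8%, against 5.23% of all genes. SMPD1, the acid sphingomyelinase, read 393 with stable Set8b, 223 with wild-type Set8b and 142.6 with vector, 2.76-fold higher with stable Set8b than with vector. ARSA, arylsulfatase A, was 2.55-fold, HGSNAT, which acetylates heparan sulfate, 2.54-fold and PRCP, a carboxypeptidase, 2.48-fold higher. The 1 hydrolase that was 2-fold lower, named after its value was seen, was CTSV, at -1.11. In membrane proteins and transporters, with a median of 0.35 and 14 of 20 above 0, TMEM192 was at 1.45, SIDT2 at 0.70 and LAPTM4A at 0.68, while PIP4P1, a phosphoinositide phosphatase, was at -0.71.

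In the sorting list SUMF1, which activates all sulfatases, was at 0.92, CLN8 at 0.80, IGF2R, the mannose 6-phosphate receptor that brings hydrolases to the lysosome, at 0.79, and AP1G1 at -0.42. In the autophagy core WIPI1, which binds the phosphoinositide of the forming autophagosome, read 776 with stable Set8b, 231 with wild-type Set8b and 230.1 with vector, 3.38-fold higher with stable Set8b than with vector. ATG2A, a lipid transfer protein that feeds that membrane, was 2.89-fold higher, the LC3 protease gene ATG4A 2.24-fold higher, and its relative ATG4C was at -0.89. Of the core, 10 of 28 genes lay below 0. Among receptors OPTN, for damaged mitochondria and bacteria, was at 0.95, NBR1 at 0.57, BNIP3L at 0.49 and GABARAPL2 at 0.39. For fusion with the lysosome EPG5 was at 1.74 with 4 probe sets between 0.63 and 1.74, PLEKHM1 at 1.21, VPS18 at 0.95 and TECPR1 at 0.60.

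Among the relatives of TFEB, TFEC read 217 with stable Set8b, 26.4 with wild-type Set8b and 26.3 with vector. With the dim sides set to a signal of 50 it was at least 4.35-fold higher with stable Set8b than with vector, a bound that does not cover noise. MITF read 591 with stable Set8b, 222 with wild-type Set8b and 264 with vector, 2.24-fold higher with stable Set8b than with vector, and its second probe set gave 1.66. RPTOR and MLST8, parts of the kinase complex mTORC1, which holds TFEB in the cytoplasm, were at -0.83 and -0.82. Each rests on 1 probe set, and RPTOR was dim with stable Set8b, at 89.0. Their list had 11 of 19 genes above 0, and a link to TFEB was not tested. TFE3, named after its value was seen, was at -0.35. In this family TFEB and TFE3 thus lay below 0 by their brightest probe sets, by less than the probe-set SD of 0.39. MITF and TFEC lay above 0, with 1 array each. TFEC was below the filter level of 51.4 with wild-type Set8b and with vector, so it passed only through its stable Set8b signal.

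The list of p53-linked genes, some of which act in autophagy and others, such as AEN, elsewhere, had a median of 1.47 with 7 of 7 above 0 and 5 at least 2-fold higher with stable Set8b than with vector. Over all genes those shares were 49.3% and 5.23%. DRAM1, a lysosomal membrane protein induced by p53, read 721 with stable Set8b, 289 with wild-type Set8b and 260.2 with vector, 2.77-fold higher with stable Set8b than with vector. TP53INP1, which binds ATG8 proteins, was 4.61-fold higher, SESN1, a sestrin that restrains mTORC1, 3.39-fold, and TIGAR, a sugar phosphatase, 3.14-fold. With wild-type Set8b over vector the median of this list was 0.19.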

How the data were processed

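The deposited data give 1 linear intensity value for each of 54675 probe sets per Affymetrix array, made from biotin-labelled total RNA per the labels' protocols. The software that made the values is not given in the sources at hand. Each array has a trimmed mean of 250.0 (2% trimmed at each end).

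The arrays were quantile normalized without the 62 control probe sets, floored at a signal of 7.7, the 20th percentile, and log2 transformed. Quantile normalization removes any overall shift. Genes were named from the platform annotation, from 41091 probe sets with 1 symbol; of these 41037 matched RefSeq by Entrez identifier and 0 were renamed, while 1801 with several symbols and 11721 with none were left out. The filter kept 20546 probe sets whose mean reached the median, a signal of 51.4, and the brightest represented its gene. Dim signals are noisier, and background compresses their differences. Because each group has 1 array, nothing was tested, and genes were counted past 1.5-fold and 2-fold.

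The members and lists were chosen with earlier results of these data known. By rule, all members are named. Those at least 1.5-fold apart in a comparison, and LAMP1, SQSTM1, MAP1LC3B, GLB1 and TFEB, are given on every array. From each other list up to 4 genes that differed most between stable Set8b and vector, and with all probe sets on 1 side, could be named. Promoters came from RefSeq (GRCh38.p14). Python 3.11.15, numpy 2.4.6, pandas 2.3.3 and matplotlib 3.10.9 were used, and the steps were tested on simulated data. Alternatives concerned normalization, floor, filter, choice of probe set and fold threshold.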

Additional observations from a re-analysis of the deposited data

How the results depend on the processing

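Each group has 1 array, so no array could be left out and no spread between cultures is known. How far a gene's probe sets differ from each other shows technical noise within the arrays only. The 3 comparisons share arrays in pairs. For stable Set8b over vector, 31 of 34 members lay above 0 with values as deposited, with arrays centred on their medians, with no floor and with both higher floors, and the median was 0.58 with values as deposited. No member changed its sign for stable Set8b over vector under the alternatives run, except SQSTM1 without probe sets ending in _x_at or _s_at. For stable over wild-type Set8b the sign turned for NPC2 with values as deposited and with centring, for TFEB with centring, for LAMP1 with the mean over probe sets and for SQSTM1 without probe sets ending in _x_at or _s_at. For wild-type Set8b over vector it turned for 9 members with centring and 4 with the mean over probe sets.

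With arrays centred on their medians the members' median was 0.47 for stable Set8b over vector (all genes -0.12) and 0.03 for wild-type Set8b over vector (all genes -0.13). Without probe sets ending in _x_at or _s_at fewer members were measured. Those above 0 were 18 of 21 with stable Set8b against vector, 18 with stable against wild-type Set8b and 17 for wild-type Set8b over vector. Over all genes these shares were 48.7%, 48.8% and 49.6%. Those at least 2-fold higher were 2 for stable Set8b over vector, against 5.44% of genes, and 1 for stable over wild-type Set8b, against 5%. With the mean over probe sets 1 member was at least 2-fold higher for stable over wild-type Set8b, against 4.06% of genes. For stable Set8b over vector it was 3 members with that mean, against 4.91% of genes, and 3 with centring, against 4.27%. GABARAPL1 fell under 2-fold in both, at 0.89 with the mean and 0.94 with centring. At 1.5-fold 17 members were higher with stable Set8b than with vector, 12 with stable than with wild-type Set8b and 3 with wild-type Set8b than with vector. The shares over all genes were 13.6%, 12.9% and 5.57%. At 3-fold 0 members were higher with stable Set8b than with vector, and 0 with stable than with wild-type Set8b. No paired analysis was possible because each group has 1 array.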

Other observations

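Below the filter lay 19 probe sets of 14 members. With stable Set8b over vector 6 of them lay above 0, 12 below and 1 at 0, with a median of -0.32, unlike the probe sets that passed. The highest signal among them on any array was 84.7. The widest difference upward was that of the second probe set of SGSH, which read 68.4 with stable Set8b, 12.4 with wild-type Set8b and 7 with vector. For TPP1 a dim probe set read 84.7 with stable Set8b, 27.5 with wild-type Set8b and 30.6 with vector, on the same side as its bright ones. For HEXA a dim probe set read 10.9 with stable Set8b, 15.2 with wild-type Set8b and 82.9 with vector, on the other side from its bright one.

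TPCN1, a lysosomal ion channel gene outside the naming rule because its probe sets disagreed and named after its values were seen, read 320 with stable Set8b, 264 with wild-type Set8b and 122.3 with vector by the brightest probe set. Its log2 difference for stable Set8b over vector was 1.39 by that probe set and -0.77 by the other.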
